A study of Mus musculus with 12 samples.

Results

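The 5 genes described here encode signals by which the thymic epithelium draws in and commits T cell progenitors: the chemokines Ccl25 and Cxcl12, the chemokine-scavenging receptors Ccrl1 and Cxcr7, and the Notch ligand Dll4. They were chosen by name, and are 5 of the 31332 genes in the count table and of the 17268 genes tested. Ccrl1 and Cxcr7 are the older symbols, used in the files, of the genes now called Ackr4 and Ackr3. All 5 passed the filter on low counts.

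As background, blood-borne progenitors enter the thymus and move through the cortex under the influence of CCL25, which signals through CCR9, and CXCL12, which signals through CXCR4. CCRL1 binds CCL25 (and CCL19 and CCL21) and CXCR7 binds CXCL12 (and CXCL11), and both internalise their ligands without the G protein signalling of a classical chemokine receptor. DLL4 on cortical epithelium engages NOTCH1 on progenitors, a signal required for T lineage commitment. The transcription factor FOXN1 is known to promote the transcription of Dll4, Ccl25 and Cxcl12 in thymic epithelium.

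RNA from cortical (cTEC) and medullary (mTEC) thymic epithelial cells was counted in 12 libraries in 4 groups of 3. The cells were sorted from thymuses of C57BL6/J mice aged 2 months. Every group carried floxed alleles of LXRalpha (Nr1h3) and LXRbeta (Nr1h2), nuclear receptors that respond to oxysterols. The libraries labelled 1 to 3 were control mTEC and 7 to 9 control cTEC, with the floxed alleles only, and 4 to 6 were mTEC and 10 to 12 cTEC from mice that also carried FoxN1-Cre. FoxN1-Cre acts in the epithelium of both compartments. No library analysed here had FoxN1-Cre without the floxed alleles, so the presence of the Cre transgene and the loss of the receptors cannot be told apart. Nothing in the labels says whether libraries came from separate animals, so the p-values measure only the spread between these libraries.

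Total counts ran from 4804697 to 11159013, and Cre cTEC library 11 had the fewest. Levels are TMM-scaled CPM (counts relative to the size of the library), and fold changes are log2 values from edgeR's quasi-likelihood test, adjusted over all genes tested with a threshold of 0.05. Nr1h2 was lower in Cre libraries, at 172 ± 17.5 CPM in control and 115 ± 11.1 CPM in Cre cTEC, and at 122 ± 11.4 and 79.2 ± 14.7 CPM in mTEC (SD, n = 3 each). Nr1h3 lay between 5.84 and 10.7 CPM in every group, and counts over a whole gene do not measure the loss of a floxed segment. The sorted types matched their labels for most markers: the summed level of 6 cTEC markers was 3393 to 4420 CPM in control cTEC and 619 to 634 CPM in control mTEC, and that of 6 mTEC markers was 65.7 to 74.5 CPM and 1916 to 2098 CPM. One mTEC marker, Ccl21a, was at 0 in 10 of the 12 libraries and under 0.5 CPM in the others. It has near-identical copies (Ccl21b and Ccl21c), so its counts are uncertain.

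The gene neighbourhoods bear on how the counts can be read, because the kit does not mark strand. In GENCODE M21 on GRCm38, a later build than the mm9 that the authors used, exons of Gm14207 on the opposite strand cover 5.56% of the exon bases of Dll4. Exons of Elavl1 cover 2.74% of those of Ccl25 and exons of Acad11 cover 8.90% of those of Ccrl1, both on the opposite strand, whereas no gene overlaps Cxcl12 or Cxcr7. The 250 bases before the transcription start are shown for Dll4, Cxcl12 and Ccl25, the members whose levels moved together across cTEC libraries, from RefSeq on GRCm38.p6. All 5 members matched the promoter table, with 6 windows in all. The window at the other Ccl25 start holds exon bases of Elavl1 and is not shown. Each sequence reads 5′ to 3′ on the plus strand, and capitals mark GACGC (the FOXN1 core motif) or AGGTCA (the element bound by LXR and other nuclear receptors), each searched on both strands.
Dll4, chr2:119325534-119325783: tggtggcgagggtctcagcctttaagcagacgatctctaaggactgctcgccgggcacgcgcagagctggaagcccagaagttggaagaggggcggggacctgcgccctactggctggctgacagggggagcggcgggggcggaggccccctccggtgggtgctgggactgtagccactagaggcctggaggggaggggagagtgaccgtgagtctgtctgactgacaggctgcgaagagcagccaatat
Cxcl12, chr6:117168285-117168534: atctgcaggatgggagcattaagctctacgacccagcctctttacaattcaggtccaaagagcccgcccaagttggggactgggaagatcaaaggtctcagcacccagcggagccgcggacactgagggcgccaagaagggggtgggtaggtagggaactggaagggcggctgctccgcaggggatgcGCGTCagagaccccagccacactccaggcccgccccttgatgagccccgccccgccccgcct
Ccl25, chr8:4349338-4349587: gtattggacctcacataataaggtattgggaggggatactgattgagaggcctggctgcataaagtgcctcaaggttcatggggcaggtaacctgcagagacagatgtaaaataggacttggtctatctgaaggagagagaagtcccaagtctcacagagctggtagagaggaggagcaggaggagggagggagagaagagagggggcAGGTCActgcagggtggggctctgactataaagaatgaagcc
GACGC occurred once in the Cxcl12 window, on the minus strand with its first base 62 bases before the start, and once in the unshown Ccl25 window, 56 bases before that start. AGGTCA occurred once, 42 bases before the Ccl25 start shown, and the paired element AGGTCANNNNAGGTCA in none of the 6 windows. Of 32851 promoter windows of this length, 22.6% held GACGC, 14% held AGGTCA and 0.0152% held the paired element. These matches are descriptions of letters. The Dll4 window also holds exon bases of Gm14207.

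All 5 genes were higher in cTEC than in mTEC in both genotypes. Ccrl1 differed most in controls, with a mean of 651 ± 86.7 CPM in cTEC and 12.3 ± 3.54 CPM in mTEC (SD, n = 3 each), a difference of -5.72 on the log2 scale for mTEC over cTEC (SE 0.17, adjusted p = 9.0e-15, edgeR). Cxcl12 and Cxcr7 followed, with differences of -3.54 (SE 0.23) and -2.77 (SE 0.20), then Ccl25 with -1.61 (SE 0.23) and Dll4 with -0.87 (SE 0.27). The background is high in this comparison: 59.2% of all genes passed, 29.3% as higher and 30% as lower in mTEC, and 69.3% had groups without overlap. In bulk RNA from sorted cells, fewer cells of a type and less RNA per cell cannot be told apart, here or in the comparisons of genotype. The Dll4 call (adjusted p = 0.0103) was lost with DESeq2, with a robust fit and without control cTEC library 8 (adjusted p up to 0.110, and a log2 difference of -0.56 without library 8).

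Per length of the longest transcript, Cxcl12 was the most abundant member in control cTEC at 283 ± 19.5 RPKM, with Ccrl1 at 241 ± 32.1 and Ccl25 at 203 ± 39 RPKM (SD, n = 3). Each of these mean levels exceeded those of at least 98.9% of the 16925 genes with a known length. Cxcr7 and Dll4 stood far lower in control cTEC, at 17.3 ± 3.16 and 13.6 ± 5.05 RPKM. In control mTEC the order changed: Ccl25 led with 66.6 ± 6.73 RPKM, ahead of Cxcl12 at 24.3 ± 1.84, Dll4 at 7.45 ± 0.60, Ccrl1 at 4.57 ± 1.31 and Cxcr7 at 2.55 ± 0.61 RPKM. In control cTEC the ranges over libraries overlapped between each pair of neighbours except Ccl25 and Cxcr7, and in control mTEC no neighbours overlapped. In Cre cTEC the means were 384 ± 144 RPKM for Cxcl12, 339 ± 130 for Ccl25, 175 ± 11.7 for Ccrl1, 30.3 ± 12.4 for Dll4 and 5.69 ± 1.33 for Cxcr7, so that Dll4 stood above Cxcr7 there. In Cre mTEC they were 35.2 ± 8.60 for Cxcl12, 27.9 ± 7.55 for Ccl25, 5.34 ± 0.22 for Ccrl1, 4.91 ± 1.40 for Dll4 and 2.45 ± 0.17 RPKM for Cxcr7 (SD, n = 3 each).

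**Figure D1:**
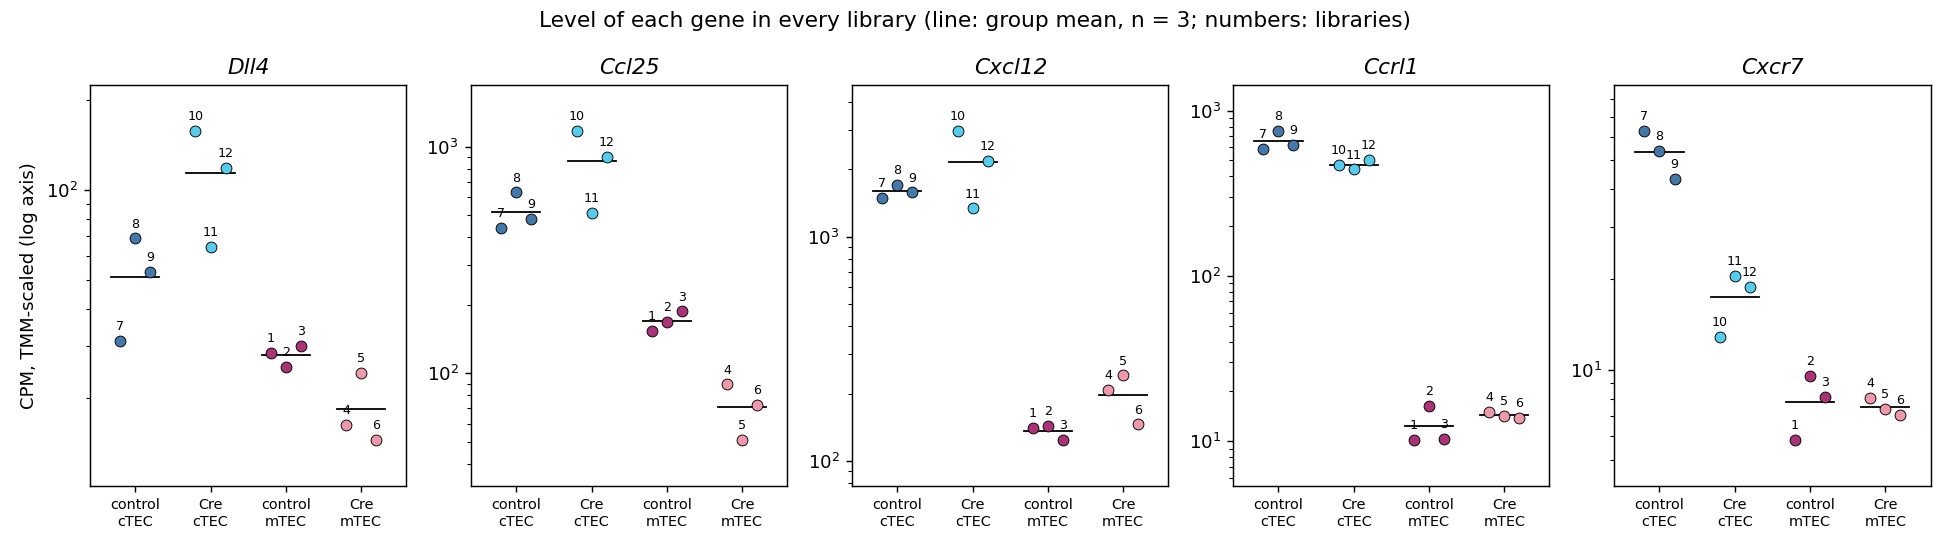
Level of each gene in every library, as TMM-scaled CPM on a log axis, by group, with a line at the group mean (n = 3) and the library number above each point. All points of cTEC lie above all points of mTEC for every gene, and in Cre cTEC library 11 is the lowest for Dll4, Ccl25 and Cxcl12.

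In Cre cTEC, 4 of the 5 genes passed the test, Dll4 and Ccl25 as higher and Ccrl1 and Cxcr7 as lower. For comparison, 9.01% of all genes passed in that comparison, 5.62% as higher and 3.38% as lower. Genes called higher in Cre cTEC had longer transcripts (median 5714 bases) than those called lower (2962.5) or all tested (3261), and offsets for gene length and GC content gave 690 higher and 590 lower calls in place of 971 and 584. The longest transcripts of Dll4 and Ccl25 have 3747 and 2549 bases and those of Ccrl1 and Cxcr7 have 2698 and 3065, and with these offsets the calls of Dll4, Ccl25 and Cxcr7 remained and that of Ccrl1 was lost. Only Ccrl1 and Cxcr7 had groups without overlap, which was so for 20.4% of all genes. In Cre mTEC, 1 member passed, Ccl25, as lower, where 2.07% of all genes passed, 0.585% as higher and 1.49% as lower. Dll4, Ccl25 and Cxcl12 had mTEC groups that did not overlap, against 24.4% of all genes.

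Ccl25, the thymus and gut chemokine recognised by CCR9, moved in opposite directions in the 2 cell types. In cTEC it was at 441, 630 and 482 CPM in control libraries 7 to 9, and at 1174, 513 and 903 CPM in Cre libraries 10 to 12. Libraries 10 and 12 lay above every control, and library 11 lay within the control range. The log2 fold change was 0.74 (SE 0.23, 95% interval 0.27 to 1.21, adjusted p = 0.0462, edgeR). The call was lost with DESeq2 (adjusted p = 0.0744), with a robust fit (0.161), when only the 6 cTEC libraries were fitted (0.0677), and on leaving out library 7, 9, 10 or 12, and the value was 0.45 without library 10 (adjusted p = 0.262). In mTEC, Ccl25 stood at 154, 168 and 188 CPM for controls 1 to 3 against 89.5, 51.0 and 72.6 CPM in Cre libraries 4 to 6. Every Cre mTEC library was below every control, and the log2 fold change was -1.26 (SE 0.24, 95% interval -1.75 to -0.76, adjusted p = 0.00862, edgeR). This call was lost with the robust fit (adjusted p = 0.0608) and without library 5 (0.0788, log2 fold change -1.07). Elavl1, whose exons overlap those of Ccl25, did not pass in either cell type (log2 fold changes 0.10 and -0.06).

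Cxcl12, the chemokine recognised by CXCR4, did not pass in either cell type. Control cTEC libraries 7 to 9 had 1493, 1710 and 1577 CPM, and Cre libraries 10 to 12 had 2958, 1339 and 2187 CPM. The Cre values bracketed the controls, with library 11 below them and the other two above. The log2 fold change was 0.44 (SE 0.21, 95% interval 0.00021 to 0.88, adjusted p = 0.251, edgeR). Without library 11 the value was 0.68 and passed (adjusted p = 0.0087), and voom and the fit with no filter also called it (0.45 and 0.50). In mTEC, Cxcl12 was at 141, 144 and 125 CPM for controls against 207, 241 and 146 CPM in Cre libraries, so that all Cre values were higher, library 6 by little. The log2 fold change was 0.53 (SE 0.22, 95% interval 0.08 to 0.99, adjusted p = 0.235, edgeR), and voom, the fit with no filter and the fit to the 6 mTEC libraries called it as higher (adjusted p = 0.0111, 0.0461 and 0.0387). The intervals leave room for an increase close to 2-fold in either cell type (upper bounds of 0.88 and 0.99 on the log2 scale).

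Dll4, the Notch ligand, rose in Cre cTEC. It was at 31.1, 68.8 and 53.1 CPM in control libraries 7 to 9 and at 157, 64.5 and 119 CPM in Cre libraries 10 to 12, with library 11 again inside the control range. The log2 fold change was 1.16 (SE 0.26, 95% interval 0.62 to 1.71, adjusted p = 0.00653, edgeR), or 2.24-fold. It kept its call without any 1 of the 6 cTEC libraries (log2 fold change 0.85 without library 10, adjusted p = 0.0489), and lost it with the robust fit (adjusted p = 0.088). In mTEC, Dll4 was at 28.4, 25.5 and 29.9 CPM for controls against 16.3, 24.4 and 14.6 CPM in Cre libraries. All Cre mTEC values were lower, library 5 only just, and the log2 fold change of -0.60 did not pass (SE 0.29, 95% interval -1.22 to 0.01, adjusted p = 0.352, edgeR), although the fit with no filter called it (-0.64, adjusted p = 0.00471). In order, Dll4 was highest in Cre cTEC, then in control cTEC, control mTEC and Cre mTEC, and the last neighbours did not differ by the main test.

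The antisense neighbour of Dll4, Gm14207, showed a like pattern in cTEC. It was at 6.92, 12.1 and 12.8 CPM in control libraries 7 to 9 and at 33.4, 12.6 and 25.6 CPM in Cre libraries 10 to 12, and the change on the log2 scale was 1.18 (SE 0.28, edgeR adjusted p = 0.0106). In mTEC it was at 4.40 ± 0.31 CPM for controls against 4.03 ± 1.17 CPM in Cre (SD, n = 3 each; adjusted p = 0.919). Reads from the bases that both genes share cannot be assigned to one of them without strand, and the 2 values are not independent evidence.

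Cxcr7, the scavenger of CXCL12, fell most of the 5 genes in Cre cTEC. Control libraries 7 to 9 had 62.6, 53.6 and 43.2 CPM, and Cre libraries 10 to 12 had 12.9, 20.6 and 18.9 CPM. The highest Cre value was below the lowest control value by more than a factor of 2, and here library 11 was the highest of the Cre libraries. The log2 fold change was -1.63 (SE 0.19, 95% interval -2.01 to -1.24, adjusted p = 1.9e-05, edgeR), a 3.09-fold decrease that was called under every alternative and ranged from -1.76 to -1.43 with 1 library left out. In mTEC, Cxcr7 was low in all libraries, at 5.84, 9.52 and 8.10 CPM for controls against 8.06, 7.38 and 7.07 CPM in Cre. The mTEC groups overlapped and the log2 fold change was -0.05 (95% interval -0.52 to 0.43, adjusted p = 0.956, edgeR), from 49 to 87 counts per library. The level of Cxcr7 in Cre cTEC (17.4 ± 4.06 CPM) still exceeded that in Cre mTEC (7.50 ± 0.51 CPM; SD, n = 3 each), with a log2 difference of -1.20 for mTEC over cTEC (adjusted p = 0.000122, edgeR, where 49.6% of all genes passed, 25.1% as higher and 24.5% as lower, and 53.1% had groups without overlap).

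Ccrl1, the scavenger of CCL25, CCL19 and CCL21, fell by less. It was at 586, 750 and 618 CPM in control cTEC libraries 7 to 9 and at 469, 441 and 504 CPM in Cre libraries 10 to 12. All Cre values lay below all controls, and the 3 Cre libraries were within 1.14-fold of each other. The log2 fold change was -0.47 (SE 0.14, 95% interval -0.75 to -0.18, adjusted p = 0.0365, edgeR). The direction was the same throughout, but the gene no longer passed on leaving out library 8, 9, 10, 11 or 12 (adjusted p at most 0.175), with no filter (0.0631) and with offsets for gene length and GC content (0.105). In mTEC, Ccrl1 was at 10.2, 16.4 and 10.3 CPM for controls against 15.1, 14.3 and 13.9 CPM in Cre, and these groups overlapped (log2 fold change 0.23, 95% interval -0.15 to 0.60, adjusted p = 0.64, edgeR). Acad11, which overlaps Ccrl1 on the other strand, was at 152 ± 7.92 and 148 ± 27.2 CPM in control and Cre cTEC (SD, n = 3 each) and did not pass (log2 fold change -0.03).

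For 3 of the 5 genes the effect of genotype was not the same in cTEC and mTEC, by the test of the difference itself (cTEC effect minus mTEC effect), where 4.01% of all genes passed, 2.92% as higher and 1.08% as lower. The difference was 2.00 on the log2 scale for Ccl25 (SE 0.33, adjusted p = 0.0022, edgeR) and 1.77 for Dll4 (SE 0.39, adjusted p = 0.0137). For Cxcr7 it was -1.58 (SE 0.29, adjusted p = 0.00511). These 3 calls held without any 1 of the 12 libraries, and that of Dll4 was lost with the robust fit (adjusted p = 0.123). Ccrl1 (-0.69, SE 0.23, adjusted p = 0.102) and Cxcl12 (-0.09, 95% interval -0.72 to 0.54, adjusted p = 0.925) did not pass. Ccrl1 was called with DESeq2 (adjusted p = 0.0358) and without library 2 (-0.95, adjusted p = 0.0194). The 3 values per gene share libraries and are read side by side.

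**Figure D2:**
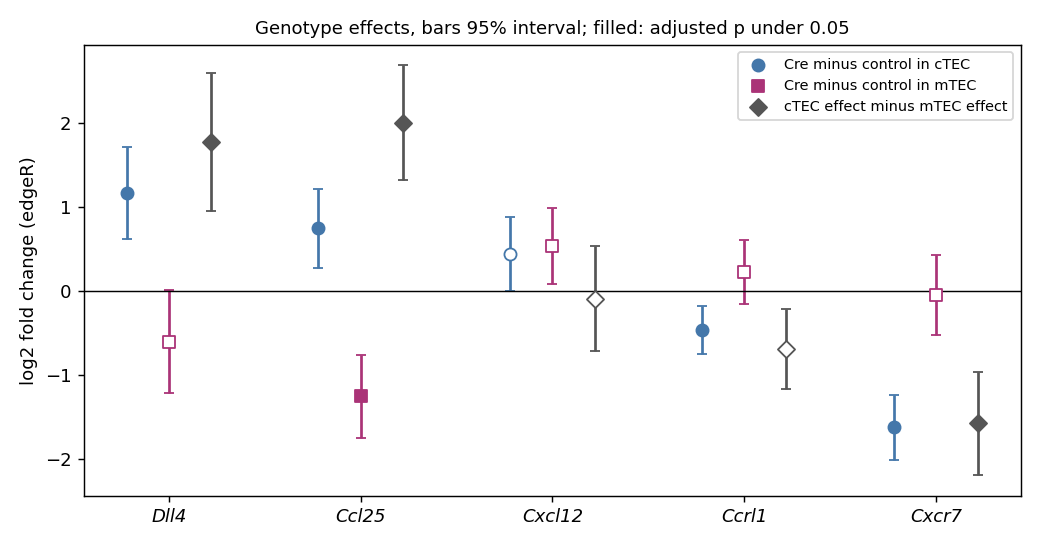
Log2 fold changes of Cre over control in cTEC (circles) and mTEC (squares) and their difference (diamonds), with 95% intervals from edgeR. Filled symbols have an adjusted p under 0.05. Dll4 and Ccl25 lie above 0 in cTEC and below 0 in mTEC, and Cxcr7 is below 0 in cTEC and close to 0 in mTEC.

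The balance of each chemokine to its scavenger was read as the ratio of length-scaled counts within a library, which does not depend on scaling between libraries. Cxcl12 per Cxcr7 was 13.0, 17.4 and 19.9 in control cTEC and 125, 35.4 and 63.2 in Cre cTEC libraries 10 to 12. Every Cre cTEC library exceeded every control, by 3.97-fold in the geometric means (exact permutation test, two-sided p = 0.1, the smallest that 3 against 3 allows). In mTEC the same ratio was 13.2, 8.24 and 8.39 in controls and 14.0, 17.8 and 11.2 in Cre, and the groups overlapped (1.45-fold, exact permutation p = 0.2). Ccl25 per Ccrl1 was 0.795, 0.889 and 0.825 in control cTEC and 2.65, 1.23 and 1.90 in Cre cTEC, 2.20-fold higher without overlap. In mTEC it fell from 15.9, 10.9 and 19.3 in controls to 6.29, 3.78 and 5.54 in Cre, a 2.93-fold lower ratio (exact permutation p = 0.1 for each, the smallest possible). Thus in Cre cTEC both ratios of ligand to scavenger stood above the control range, including library 11, and no ratio can pass a threshold of 0.05 at this group size.

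**Figure D3:**
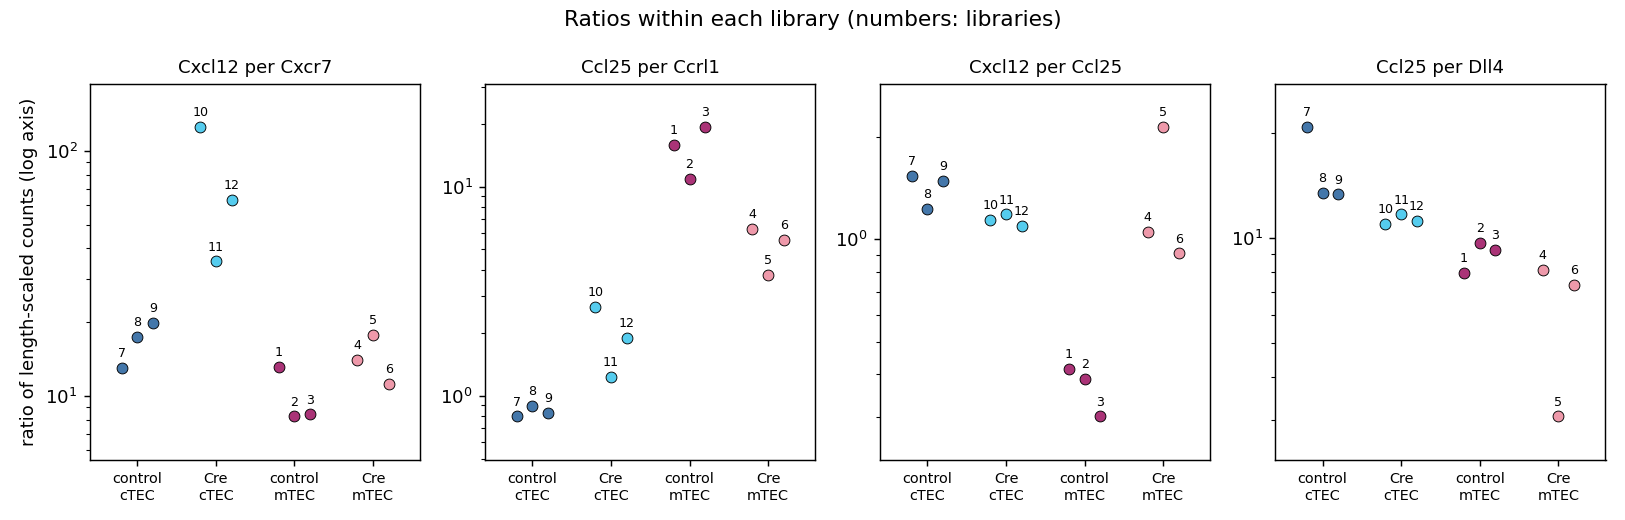
Ratios of length-scaled counts of 2 genes within each library, on log axes, by group, with library numbers. Cxcl12 per Cxcr7 and Ccl25 per Ccrl1 are above all controls in Cre cTEC, and Cxcl12 per Ccl25 and Ccl25 per Dll4 take nearly the same value in Cre cTEC libraries 10, 11 and 12.

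Dll4, Ccl25 and Cxcl12 varied together among the Cre cTEC libraries. The highest library (10) exceeded the lowest (11) by 2.44-fold for Dll4, 2.29-fold for Ccl25 and 2.21-fold for Cxcl12. The ratios between them hardly varied there: Cxcl12 per Ccl25 spanned 1.10 to 1.18 and Ccl25 per Dll4 spanned 11.0 to 11.7. In control cTEC the same ratios spanned 1.23 to 1.53 and 13.3 to 20.8. Both were lower in every Cre cTEC library than in any control cTEC library. They spanned 0.301 to 0.416 and 7.95 to 9.70 in control mTEC. The widest ranges were in Cre mTEC, at 0.909 to 2.14 and 3.08 to 8.08. In the Cre mTEC libraries Cxcl12 was highest where Ccl25 was lowest, in library 5. The scavengers did not follow: in Cre cTEC, Ccrl1 was almost level and Cxcr7 was lowest in library 10.

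Markers of cTEC moved with these 3 genes. The summed level of the 6 cTEC markers Psmb11, Prss16, Ly75, Tbata, Enpep and Cd83 was 3393, 4420 and 3685 CPM in control cTEC libraries 7 to 9 and 10788, 4104 and 7386 CPM in Cre libraries 10 to 12. With edgeR, 4 of the 6 passed as higher in Cre cTEC, where 5.62% of all genes did. Of these, Psmb11 and Prss16 had groups that overlapped. Their calls were lost in 4 and 3 of 6 fits with 1 library left out and in 2 and 1 of 8 other settings. Tbata and Ly75 kept theirs throughout. Set against this sum, a measure chosen after the values were seen, Dll4 was at 9.17 to 15.6 per 1000 CPM of markers in controls and 14.6 to 16.1 in Cre, so that the groups overlapped (exact permutation p = 0.2). Ccl25 was at 130 to 142 in controls and 109 to 125 in Cre, and Cxcl12 at 387 to 440 and 274 to 326. Relative to this sum, Ccl25 and Cxcl12 were lower in all 3 Cre libraries than in any control. Ccrl1 was at 168 to 173 in controls and 43.5 to 107 in Cre, and Cxcr7 at 11.7 to 18.4 and 1.19 to 5.02 (exact permutation p = 0.1 for each of these 4 genes, the smallest possible). These values depend on how the markers are weighted, since Prss16 made up 50.5% of the sum in control and 50.1% in Cre cTEC. Against the geometric mean of the 6 markers, also chosen after the values were seen, Ccl25 overlapped (1.11 to 1.28 in controls and 1.07 to 1.24 in Cre). Dll4 was higher in Cre without overlap (0.0839 to 0.140 and 0.143 to 0.163). Cxcl12, Ccrl1 and Cxcr7 were lower without overlap. Against single markers, Ccl25 stood lower in Cre cTEC for Tbata without overlap, overlapped for Psmb11, Prss16, Ly75 and Enpep, and stood higher for Cd83 (2.11 to 2.38 in controls and 2.60 to 3.29 in Cre). Cxcl12 was lower without overlap against Psmb11, Prss16, Ly75 and Tbata and overlapped against Enpep and Cd83, the 2 markers that did not pass in Cre cTEC. Dll4 was higher without overlap against Psmb11, Enpep and Cd83 and overlapped against the other 3. Cxcr7 was lower without overlap against each of the 6 markers, and Ccrl1 against all but Cd83. The part of the marker difference in the changes of the 5 genes was not tested.

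**Figure D4:**
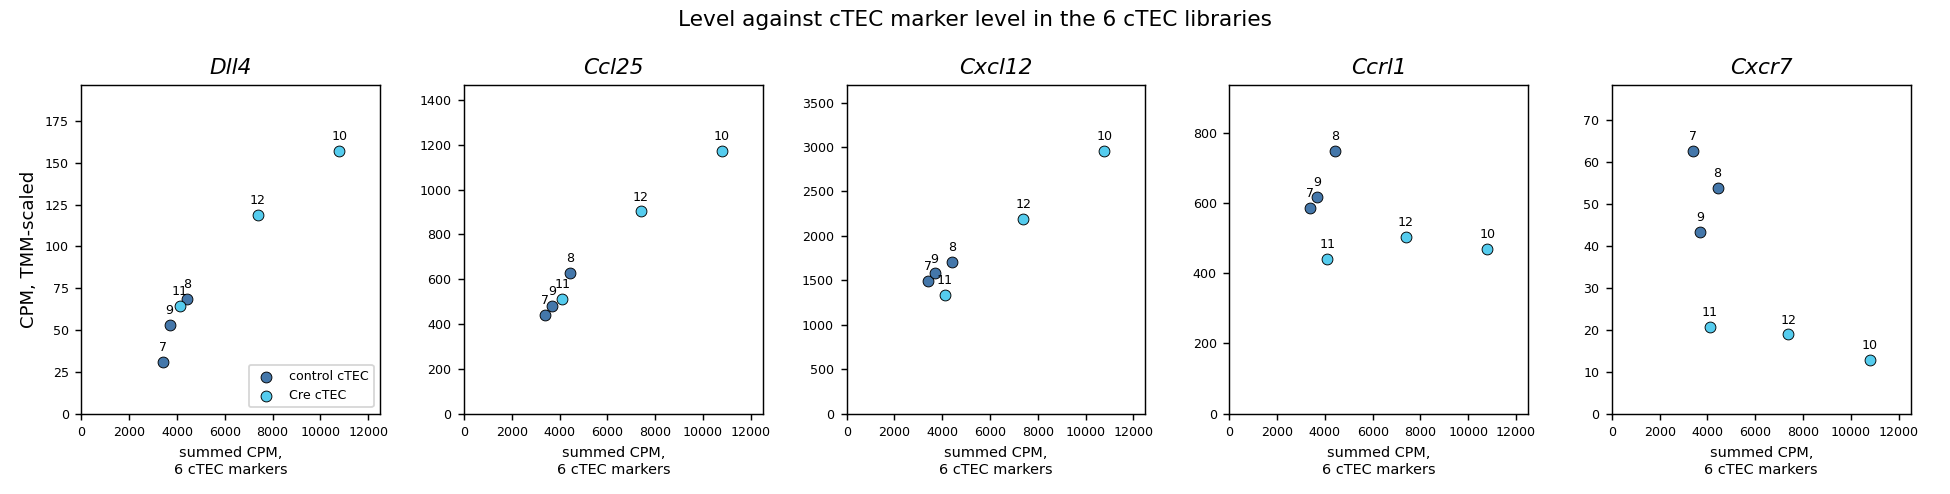
Level of each gene (CPM) against the summed level of 6 cTEC markers (CPM) in the 3 control and 3 Cre cTEC libraries, with library numbers. Dll4, Ccl25 and Cxcl12 are highest in library 10, where the marker sum is 10788 CPM, while Ccrl1 and Cxcr7 are lower in all Cre libraries than in all controls.

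Foxn1 itself was lower in the Cre libraries of both cell types. It was at 271, 354 and 330 CPM for control cTEC against 73.2, 166 and 94.7 CPM in Cre libraries 10 to 12 (log2 fold change -1.53, SE 0.36, adjusted p = 0.00851, edgeR). Library 10, with the least Foxn1 of the cTEC libraries, had the most Dll4, Ccl25 and Cxcl12, and library 11, with the most Foxn1 of the Cre group, had the least of each in that group. Within control cTEC the order was the opposite: library 8 had the most and library 7 the least of Foxn1 and of each of those 3 genes. In mTEC, Foxn1 was at 291, 232 and 240 CPM for controls against 156, 34.0 and 57.7 CPM in Cre libraries 4 to 6 (log2 fold change -1.63, SE 0.36, adjusted p = 0.0216, edgeR). Voom also called Foxn1 as lower in mTEC (-2.05, adjusted p = 0.000124), and DESeq2 did not call it there. There library 4 had the most and library 5 the least of both Foxn1 and Ccl25 within the Cre group, whereas Dll4 was highest in library 5. With 3 libraries a group, these are values side by side and no relation was tested.

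The summed markers of other cell types are given here for the cTEC libraries. The mTEC marker sum was 3.31% to 3.75% of the control mTEC mean in control cTEC and 4.64% to 6.96% in Cre cTEC. Of the 5 tested mTEC markers, 3 (Tnfrsf11a, Cd40 and Fezf2) passed as higher there, where 5.62% of all genes did. Aire and Cd80 did not pass with edgeR and had lower means in Cre cTEC. Aire was at 10.3 ± 0.51 CPM in control and 5.75 ± 3.40 CPM in Cre (voom adjusted p = 0.0318, as lower). Cd80 was at 2.38 ± 0.46 and 1.70 ± 1.57 CPM (SD, n = 3 each). All 5 genes were lower in mTEC than in cTEC. Endothelium is a known site of Dll4, Cxcl12 and Cxcr7, and the summed 10 endothelial markers were at 28.6 to 44.5 CPM in control and 19.6 to 40.6 CPM in Cre cTEC. In single cTEC libraries the 10 genes ranged from 0.559 CPM for Cdh5 to 10.3 CPM for Pecam1, and none was at 0. Of the 9 tested, 8 did not pass, with group means that were higher in Cre cTEC for Tek, Flt1 and Emcn and lower for the others, and Plvap fell from 6.57 ± 3.15 to 2.19 ± 0.78 CPM in Cre cTEC (SD, n = 3 each, adjusted p = 0.00486, edgeR). The 7 fibroblast markers summed to 212 to 268 CPM in control and 175 to 380 CPM in Cre cTEC, and the 12 thymocyte markers to 136 to 230 CPM and 169 to 199 CPM, with 0 of 11 tested thymocyte genes called by edgeR, DESeq2 or voom (1 at an unadjusted p under 0.05). Of the 7 fibroblast genes Col3a1 passed as higher and Lum as lower in Cre cTEC, and Col1a1 as lower in Cre mTEC. With 1 library left out, the Col3a1 call was lost in 4 of 6 fits and the Col1a1 call in 5 of 6. In the 8 other settings they were lost in 3 and 2, and Lum kept its call throughout. The 4 pericyte markers summed to 245 to 377 CPM in control and 366 to 409 CPM in Cre cTEC, and Myh11 (log2 fold change 1.38) and Rgs5 (0.81) passed as higher. The Rgs5 call was lost in 5 of 6 fits with 1 library left out and in 4 of 8 other settings, with voom among them. Acta2 (190 ± 59.3 CPM in control and 144 ± 33.9 CPM in Cre) and Cspg4 (6.65 ± 0.95 and 4.88 ± 2.16 CPM) had lower means and did not pass (SD, n = 3 each). Macrophage and dendritic cell markers summed to 34.0 to 50.2 and 31.0 to 32.3 CPM and B cell markers to 6.74 to 8.14 and 4.02 to 10.5 CPM, with no call by edgeR, DESeq2 or voom and none at an unadjusted p under 0.05. Erythroid markers summed to 3.11 to 7.85 and 6.58 to 56.0 CPM, with no call by these tools and 3 of 3 at an unadjusted p under 0.05. The part of these cells in the changes of the 5 genes was not tested. In mTEC, where Ccl25, Ccl11 and Ccl8 fell, the cTEC marker sum was 16.1% to 16.5% of the control cTEC mean in controls and 12.0% to 15.6% in Cre. Tbata made up 54.2% of this sum in control and 43.9% in Cre mTEC, with means of 339 and 235 CPM. Ly75 and Cd83 also had lower means in Cre mTEC. Psmb11 (17.5 and 22.9 CPM), Prss16 (110 and 137 CPM) and Enpep (22.7 and 28.0 CPM) had higher means, and none of the 6 passed with edgeR. Voom called Tbata as lower in Cre mTEC (log2 fold change -0.52, adjusted p = 0.0195). The fibroblast sum was 169 to 193 CPM in control and 124 to 163 CPM in Cre mTEC, without overlap. Its members differed in direction. Col3a1 (70.5 and 41.6 CPM), Col1a1 (37.8 and 21.5 CPM), Pdgfrb and Col1a2 had lower means in Cre mTEC. Postn (14.4 and 24.7 CPM), Pdgfra and Lum had higher means. Voom called Col1a1 and Col3a1 as lower and Postn as higher (adjusted p = 0.0015, 0.0185 and 0.00567). The mTEC marker sum was 1916 to 2098 CPM for controls against 1499, 1486 and 1966 CPM for Cre libraries 4 to 6, and macrophage and dendritic cell markers were at 248 to 326 CPM and at 197, 206 and 328 CPM in those libraries. All 5 tested mTEC markers had lower means in Cre mTEC, and none passed with edgeR or DESeq2. Voom called Aire (log2 fold change -0.53, adjusted p = 0.00872) and Cd80 (-0.72, adjusted p = 0.0016) as lower. Erythroid markers were at 84.1 CPM in library 4 and at 6.94 to 21.4 CPM in the other mTEC libraries. Endothelial markers summed to 68.9 to 74.5 and 58.0 to 76.4 CPM, pericyte markers to 1334 to 1502 and 1496 to 1914 CPM, thymocyte markers to 88.6 to 113 and 99.8 to 143 CPM and B cell markers to 16.4 to 21.7 and 14.2 to 17.6 CPM. Voom called the macrophage marker Itgam, the endothelial marker Flt1 and the erythroid marker Alas2 as lower in Cre mTEC (adjusted p = 0.0106, 0.0162 and 0.0423). The part of these cells in the mTEC changes was not tested.

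Of 35 on a list of ligands besides the 5 genes, 29 were tested. With edgeR, 3 of the 29 rose in Cre cTEC, 26 did not pass and none fell (median log2 fold change 0.12, against -0.02 for all genes tested). That is 10.3% of the list, where 9.01% of all genes passed. At an unadjusted p under 0.05 there were 10, DESeq2 called 3 as higher and 1 as lower, and voom called 1 as higher. They were Cxcl10 (0.85, SE 0.17, adjusted p = 0.00218, edgeR), Cxcl9 (1.17, SE 0.29) and Cxcl14 (1.09, SE 0.31), of which Cxcl10 and Cxcl9 encode ligands of CXCR3. All were far lower in cTEC than in mTEC, such as Cxcl10 at 36.9 ± 2.89 CPM in control cTEC, 66.0 ± 14.7 CPM in Cre cTEC and 400 ± 15.7 CPM in control mTEC (SD, n = 3 each). The calls for Cxcl9 and Cxcl14 were lost with voom, when only the 6 cTEC libraries were fitted, and when library 7, 8 or 11 was left out, and that for Cxcl14 also with the robust fit and without library 10. In Cre mTEC, edgeR called 5 of the 29 as lower, which is 17.2% of the list where 1.49% of all genes passed as lower. The other 24 did not pass and none rose (median -0.40, against 0.01 for all genes). At an unadjusted p under 0.05 there were 14, DESeq2 called 5 and voom 13, all as lower. Among them were Ccl11, an eosinophil attractant (from 540 ± 42.8 to 237 ± 63.3 CPM, log2 fold change -1.19, SE 0.20, adjusted p = 0.00473, edgeR), Ccl8 (-1.46), Ccl22, a ligand of CCR4 (-0.69, lost without library 1 or 5), and Cxcl1 (-0.70, lost without library 1, 2, 3, 4 or 5). Ccl7 also fell (-0.87, adjusted p = 0.0444). The difference of effects passed for 4 of the 29 (Ccl7, Ccl11, Cxcl9 and Cxcl10), each with a cTEC effect above the mTEC effect, or 13.8% of the list where 4.01% of all genes passed. DESeq2 called 6 and voom 5, in the same direction, and 12 had an unadjusted p under 0.05.

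**Figure D5:**
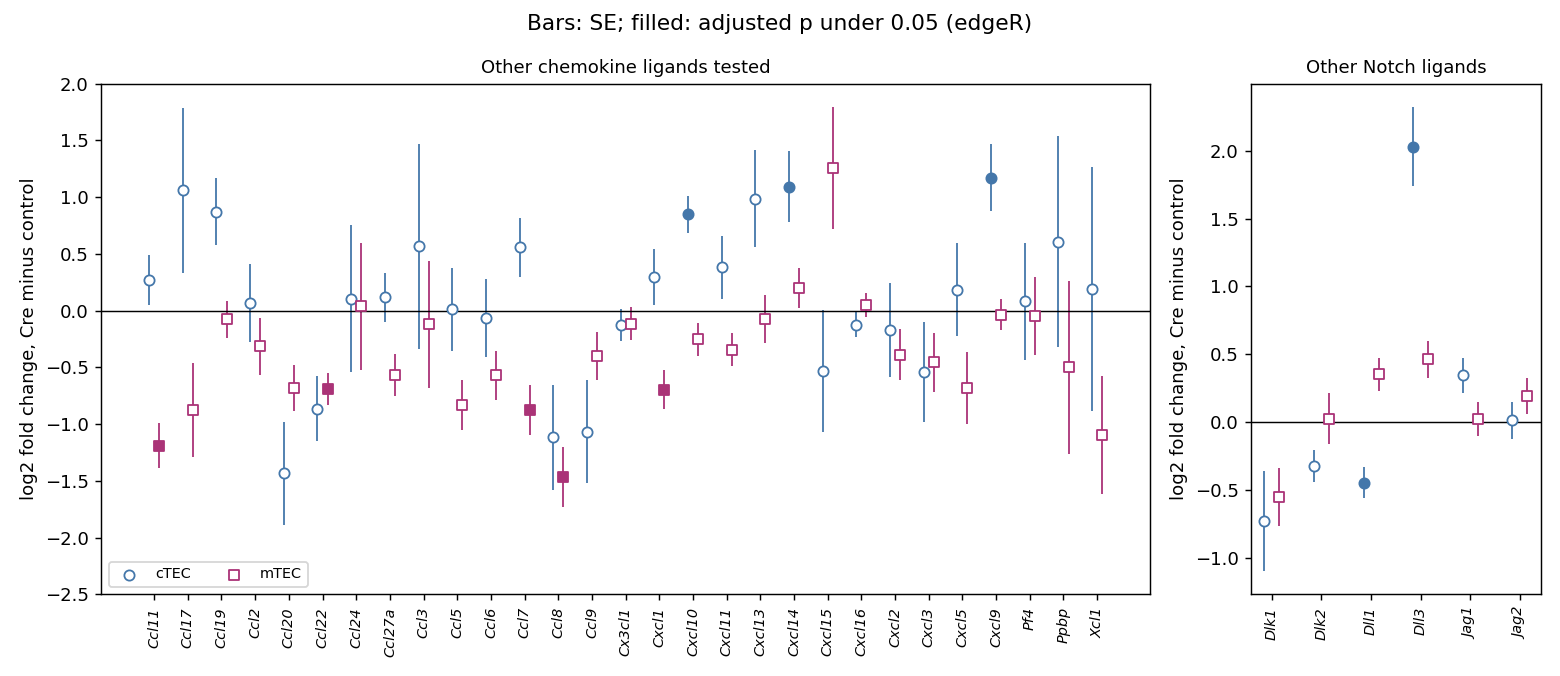
Log2 fold change of Cre over control in cTEC (circles) and mTEC (squares) for the 29 other chemokine ligands tested and 6 other Notch ligands, with SE as bars. Filled symbols have an adjusted p under 0.05 (edgeR). In cTEC 3 chemokines are filled, all above 0, and in mTEC 5, all below 0.

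Receptors for chemokines, carried mainly by thymocytes and other leukocytes, gave no calls by the main test. With edgeR, 0 of 14 tested signalling chemokine receptors passed in either cell type, where 9.01% of all genes passed in cTEC and 2.07% in mTEC. At an unadjusted p under 0.05 there were 0 in cTEC and 2 in mTEC, DESeq2 called 0 and 1, and voom 1 and 2. Both tools called Ccr4 as lower in Cre mTEC (adjusted p = 0.0201 with DESeq2 and 0.000501 with voom). It was at 22.2 to 26.9 CPM in control and 9.58 to 15.4 CPM in Cre mTEC, without overlap. Voom also called Cxcr5 in mTEC and Ccr3 in cTEC, each as lower. Ccr9, the receptor of CCL25, was at 11.6 to 21.0 CPM across all 12 libraries, and Cxcr4, the receptor of CXCL12, at 1.35 to 3.66 CPM. Of the atypical receptors besides Ccrl1 and Cxcr7, Ccbp2 and Ccrl2 were tested and neither passed in cTEC or mTEC (adjusted p from 0.123 to 0.856, edgeR). Voom called 1 of them in mTEC, where 1 had an unadjusted p under 0.05, and DESeq2 called none.

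Among the 6 other Notch ligands, Dll1 and Dll3 passed in Cre cTEC in opposite directions with edgeR, DESeq2 and voom. That is 33.3% of the list with edgeR, where 9.01% of all genes passed. Jag1, Jag2, Dlk1 and Dlk2 did not pass with edgeR or DESeq2, and 4 of the 6 had an unadjusted p under 0.05. Voom also called Dlk2, a noncanonical ligand, at 104 to 112 CPM in control and 85.5 to 87.6 CPM in Cre cTEC, ranges that do not overlap (log2 fold change -0.32, adjusted p = 0.116 with edgeR and 0.0304 with voom). Dll1, an activating ligand like Dll4, fell from 219, 188 and 188 CPM to 161, 150 and 125 CPM (a log2 change of -0.44, SE 0.11, adjusted p = 0.0179, edgeR), a call lost without library 7 or 12 and with no filter. Dll3, a ligand known for acting within the cell that makes it, rose from 1.02 ± 0.28 to 4.09 ± 1.01 CPM in cTEC (log2 fold change 2.03, SE 0.29, adjusted p = 0.000164) and stood at 27.5 ± 0.46 CPM in control mTEC. The mTEC markers that rose in Cre cTEC moved with it, and their part in this change was not tested. In Cre mTEC 0 of the 6 passed with edgeR or DESeq2, 3 had an unadjusted p under 0.05 and voom called 3. Voom had Dll1 (log2 fold change 0.39, adjusted p = 0.0260) and Dll3 (0.49, adjusted p = 0.00309) as higher and Dlk1 (-0.59, adjusted p = 0.0106) as lower there. The difference of effects passed for Dll1 (-0.80, SE 0.17, adjusted p = 0.00991) and Dll3 (1.57, SE 0.33, adjusted p = 0.00996), where 4.01% of all genes passed. The effect on Dll1 thus differed between cell types in the direction opposite to that on Dll4. Of 13 genes that handle Notch ligands, Mib1, the ubiquitin ligase that lets ligands be internalised, and Epn1, an endocytic adaptor, rose in Cre cTEC (0.54 and 0.41) with edgeR, DESeq2 and voom, and the other 11 did not pass with edgeR, where 9.01% of all genes passed. At an unadjusted p under 0.05 there were 4, and voom also called Furin as higher and Lfng as lower (adjusted p = 0.0210 and 0.0410). Mib1 lost its call without library 9 and with length and GC offsets, and Epn1 without library 7, 8, 9, 10 or 12, with no filter, when only the 6 cTEC libraries were fitted and with those offsets. In mTEC 0 of the 13 passed with edgeR, DESeq2 or voom, and 0 had an unadjusted p under 0.05.

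The genes with the most similar profiles were found by the root mean square difference of log2 CPM over the 12 libraries, each gene centred on its mean, among 11401 named genes of at least 5 CPM. Fold changes between cell types weigh most in this measure. Dll4 was closest to Tbata, one of the cTEC markers above (0.25), Akap12 (0.29) and Sipa1l2 (0.29), and Ccl25 to Fgf14 (0.19), Il34 (0.33) and Gsta4 (0.42). Cxcl12 was closest to P4ha3 (0.17), Fmo1 (0.26) and Diras2 (0.27), and Ccrl1 to Serpinf1 (0.27), Il33 (0.34) and Prss23 (0.40). Cxcr7 was closest to Wnt6 (0.30), Dab2 (0.30) and F3 (0.31). These genes were picked for their likeness over the same libraries, so their shared direction between groups follows from the choice.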

How the data were processed

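The values deposited by the authors are whole-number, unnormalised counts for each gene symbol in 12 libraries, made with the SMARTer low-input kit per the labels' protocols. STAR, HTSeq, edgeR and the build mm9 are named per the submitters' processing notes; the sources used here do not state versions, annotation, strand setting or the handling of reads with several matches. All other values were computed from these counts.

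Groups were compared with the two-sided quasi-likelihood F-test of edgeR 4.0.16 in R 4.3.3, with TMM scaling, filterByExpr by group, a single model of the 4 groups (8 residual degrees of freedom) and p-values adjusted by Benjamini-Hochberg over the 17268 genes tested of 31332. It was run for 5 comparisons. RPKM used the longest GENCODE M21 transcript. 1 count was worth 0.0896 to 0.208 CPM. Within groups, libraries differed by more than sampling noise (chi-square per degree of freedom 3.08 to 12.1).

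The 5 genes and the 15 gene lists were chosen with earlier results of these data known. Named genes were the 5; up to 4 members per list by p among those passing with a mean of at least 5 CPM; 3 most similar profiles each; and label checks. Other genes named (those overlapping the 5, receptors, Notch ligands and markers) were added with their values in view. As alternatives, the tests were rerun with size factors of DESeq2, DESeq2 1.42.0 itself, voom (limma 3.58.1, quality weights), robust dispersion, no filter, a filter of 5 CPM in 3 libraries, the 6 libraries compared, each library left out, and, chosen after seeing the data, length and GC offsets (mgcv). The fit was tested on simulated data.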

Additional observations from a re-analysis of the deposited data

Results flagged for a closer look

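3 of the 5 genes had a genotype effect that differed between cTEC and mTEC by the test of the difference (edgeR, all 12 libraries, adjusted over all genes tested). The cTEC effect minus the mTEC effect was 2.00 on the log2 scale for Ccl25, 1.77 for Dll4 and -1.58 for Cxcr7. For Ccl25 the effect was positive in cTEC and negative in mTEC, and each was past the threshold in the main fit. The cTEC call was lost in 4 of 6 fits with 1 library left out and in 3 of 8 other settings. The mTEC call was lost in 1 of 6 and 1 of 8. For Dll4 only the cTEC effect was past it. For Cxcr7 the mTEC level was low in every library (5.84 to 9.52 CPM, from 49 to 87 counts), and the 95% interval of the mTEC effect, -0.52 to 0.43, leaves out a fall of the size seen in cTEC (-1.63).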

How the results depend on the processing

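No paired analysis was possible because the libraries carry the numbers 1 to 12, each used once. Of 30 results (each gene and the count of calls in 5 comparisons), the cTEC-to-mTEC differences of Ccl25, Cxcl12, Ccrl1 and Cxcr7, the Cxcr7 decrease in Cre cTEC, the Dll4 difference between cell types in Cre, and the differences of effects of Ccl25 and Cxcr7 kept direction and call under every alternative run. Ccrl1 in mTEC kept its direction and was never called. Counts of calls between cell types ran from 8858 to 11497 in controls (10231 in the main fit) and from 7305 to 9846 in Cre (8573). Calls in Cre cTEC were lost for Ccl25 with DESeq2, the robust fit and the 6 libraries (log2 0.74, 0.74 and 0.73), for Dll4 with the robust fit (1.16) and for Ccrl1 with no filter and length and GC offsets (-0.42 and -0.38). Cxcl12 gained a call in cTEC with voom and no filter (0.45 and 0.50) and in mTEC with voom, no filter and the 6 libraries (0.59, 0.50 and 0.55). In mTEC Ccl25 lost its call with the robust fit (-1.26) and Dll4 gained one with no filter (-0.64). The difference of effects lost Dll4 with the robust fit (1.77), gained Ccrl1 with DESeq2 (-0.64) and turned for Cxcl12 with no filter (0.0038). In controls Dll4 lost its cell type call with DESeq2 and the robust fit (-0.81 and -0.87). With 1 library left out, Cre cTEC values ran from 0.45 to 0.99 for Ccl25, 0.15 to 0.68 for Cxcl12 and -0.53 to -0.35 for Ccrl1. In mTEC they ran from -1.49 to -1.07 for Ccl25 and -0.24 to 0.12 for Cxcr7, which turned positive without library 2 (0.12). The difference of effects ran from -0.95 to -0.56 for Ccrl1 and -0.38 to 0.19 for Cxcl12, positive without library 5 or 11 (0.08 and 0.19), and the control cell type difference of Dll4 from -1.08 to -0.56. Counts of genes called were 1018 to 2294 in cTEC (1555 with all), 78 to 671 in mTEC (358) and 371 to 1644 for the difference (692), with 1 library left out: lower in cTEC without library 7, 9 or 10, lower in mTEC without 1 to 5 and higher without 6, and for the difference lower without 1, 3, 5, 7 or 9 and higher without 11. In mTEC they were 599 with DESeq2, 1672 with voom, 1049 with no filter and 1026 with the 6 libraries, and for the difference 1131, 1398 and 1140 with DESeq2, voom and no filter. The cause was not tested.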
